A study of Mus musculus with 30 samples.

Results

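Deletion and antibody blockade, as routes to the loss of interleukin-34 (IL-34) in mouse forebrain, were set against each other gene by gene. The first route was deletion of the Il34 gene, read as knockout (IL34 KO, 3 animals) minus heterozygous animals (IL34 Het, 4 animals). The second was antibody blockade in wild-type mice, read as 4 animals given anti-IL34 minus 4 given anti-gp120, the control antibody, raised against a viral envelope protein. The libraries were the 15 labelled whole-forebrain libraries of 30 labelled libraries in the series, chosen by tissue and arm. The other 15 came from CD11b-isolated microglia of the opposite hemisphere. All animals were perfused with saline, and each forebrain library came from a separate animal. The Het controls keep 1 intact copy of Il34, whereas both antibody arms keep both copies, so the controls of the experiments are not the same kind of animal. Het and anti-gp120 each held 2 males and 2 females, KO held 1 male and 2 females, and anti-IL34 held 3 males and 1 female. Age, strain, antibody dose and treatment length are not stated in the labels, nor is where along the gene the deletion lies. The quantity described is the deletion effect minus the antibody effect on the log2 scale, called the difference below. A negative difference means that a gene was lower after deletion than after the antibody, each relative to its own control.

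IL-34 and CSF1 are the ligands of the receptor CSF1R, on which microglia depend for survival. In forebrain IL-34 is made mainly by neurons, while CSF1 serves microglia more in other regions. Interferons signal through JAK kinases and STAT and IRF transcription factors to a large set of antiviral genes, many of which carry an interferon-stimulated response element in the promoter, and microglia and other brain cells can express these genes. In bulk tissue, fewer cells of a type and less RNA per cell cannot be told apart.

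Libraries held 15.1 to 75.2 M counts (M for mega), with 44.4 to 62.6 M in Het, 21.2 to 53.8 M in KO, 15.5 to 75.2 M in anti-gp120 and 15.1 to 43.1 M in anti-IL34. Levels below are CPM, counts per M counts of the library, scaled by TMM to allow for differences in composition. Y-linked counts and Xist matched the sex label in all 15 libraries. The 30 tested homeostatic microglia markers summed to 405 to 1075 CPM per library, so microglial RNA was measured in every one. Choroid plexus markers, which vary with dissection, summed to 102 to 215 CPM in the genotype libraries, 11.1 to 70.7 CPM in anti-gp120 and 10.5 to 145 CPM in anti-IL34. None of the 13 choroid plexus genes passed the adjusted threshold in either route, but all 13 had an antibody value above 0 and a difference below 0, with medians of 0.38 and -0.70. This is the direction of the interferon genes described below, and its part in those results was not tested.

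Il34, the targeted gene (ENSMUSG00000031750, GRCm38 chromosome 8, 110741829 to 110805924, minus strand), was read first. Its level was 23.4, 19.6, 19.2 and 23.5 CPM in the Het animals and 6.78, 7.64 and 8.75 CPM in the KO animals. It was 36.4, 38.9, 37.3 and 31.8 CPM with anti-gp120 and 37.8, 37.4, 41.4 and 36.6 CPM with anti-IL34. The KO animals lay below all Het animals without reaching 0, and the antibody arms overlapped. Il34 mRNA fell by 1.49 on the log2 scale with deletion and had an antibody effect of 0.09 (SE 0.086). The difference was -1.58 (SE 0.135, edgeR quasi-likelihood test, Benjamini-Hochberg adjusted p = 2.45e-05). The antibody acts on the IL-34 protein, which was not measured here. Il34 overlaps 2 antisense genes in the annotation, and strand use in counting is not stated.

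Of 19724 genes tested, 2 had a difference past an adjusted p of 0.05 (0.0101% of genes), Il34 and Lgals3bp, both lower. Before adjustment, 605 genes (3.07%) had a difference p under 0.05, of which 399 (2.02%) had a lower and 206 (1.04%) a higher difference. Leaving out 1 animal gave 476 (without Het 20) to 964 (without anti-gp120 15) genes with such a p. By route, 87 genes (0.441%) passed for deletion, all lower, and 204 (1.03%) for the antibody, of which 53 (0.269%) rose and 151 (0.766%) fell. With 1 animal left out, fewest passed for deletion without KO animal 3. For the antibody, fewest passed without anti-IL34 animal 11, as given in the last section. An unadjusted p under 0.05 was found for 3.84% of genes in the deletion route (0.791% higher, 3.05% lower) and 7.15% in the antibody route (2.77% higher, 4.38% lower). The arms did not overlap for 3.83% (higher) and 5.24% (lower) of genes in the deletion route and for 1.19% and 2.08% in the antibody route. The classes were 72 genes past the threshold in both routes (0.365%), all lower in both, 132 in the antibody route alone (0.669%) and 15 in the deletion route alone (0.076%). No gene passed in opposite directions. Passing in 1 route and not in the other does not show that the routes differ, so the difference test is given beside each class.

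**Figure D1:**
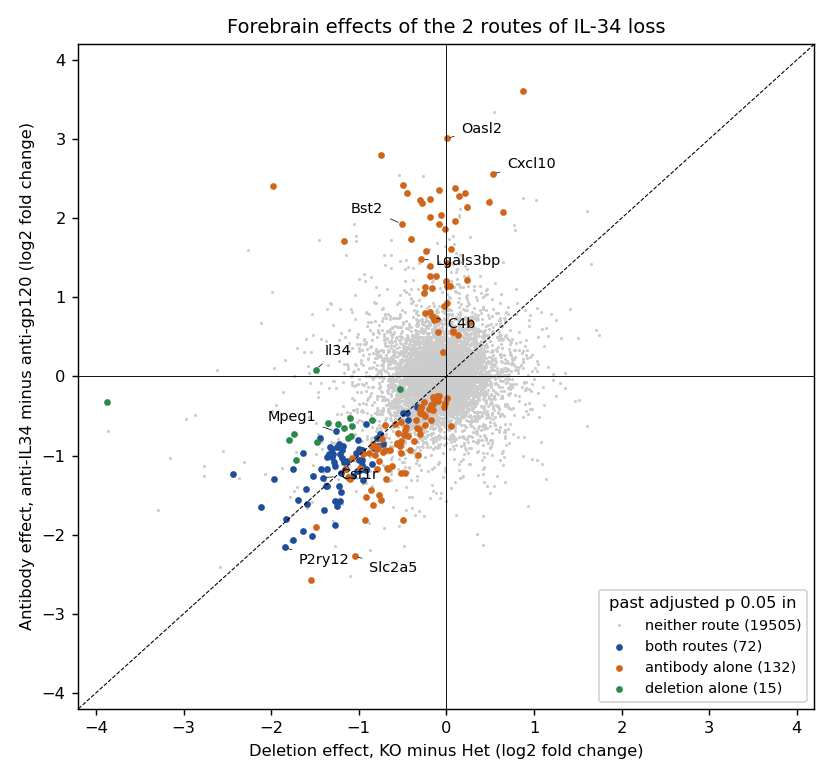
Deletion effect (KO minus Het, log2, horizontal) against antibody effect (anti-IL34 minus anti-gp120, log2, vertical) for the genes tested; colours mark the adjusted calls, the dashed line marks equal effects, and 2 uncalled genes lie outside the axes. Genes of both routes lie near the line in the lower left, whereas most of the 53 genes that rose with the antibody form a column near 0 on the deletion axis. Exceptions include Ifi204, at -1.17 on that axis.

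Lgals3bp was the gene with a called difference other than the deleted one. It encodes galectin-3-binding protein, a secreted glycoprotein that interferons induce (ENSMUSG00000033880, chromosome 11, 118392751 to 118402092, minus strand, no overlapping gene). Levels were 6.54, 7.33, 6.49 and 7.11 CPM in Het and 4.54, 6.07 and 6.06 CPM in KO. They were 14.7, 11.46, 9.07 and 8.96 CPM with anti-gp120 and 37.0, 27.4, 27.8 and 36.7 CPM with anti-IL34. All anti-IL34 animals stood above all anti-gp120 animals without overlap, whereas the KO animals stood slightly below the Het animals. Lgals3bp rose with the antibody by 1.48 (SE 0.144, edgeR adjusted p = 1.40e-05), against a deletion value of -0.29 (95% interval -0.64 to 0.07). The difference of -1.76 (SE 0.223, edgeR adjusted p = 0.00372) passed in all 15 fits that left out 1 animal and in 8 of 8 other settings. The other galectins did not pass: Lgals9, which is interferon-inducible too, had a difference of -0.65 (SE 0.230), and Lgals3, the partner of the Lgals3bp protein, had -0.64 (SE 0.536).

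The first gene outside the threshold was Oasl2 (chromosome 5, 114896936 to 114912234), a member of the oligoadenylate synthetase-like antiviral family. It measured 2.74, 2.97, 2.95 and 2.97 CPM in Het and 1.53, 3.64 and 2.93 CPM in KO. It measured 6.93, 4.29, 2.37 and 4.09 CPM with anti-gp120 and 58.1, 23.1, 22.8 and 56.7 CPM with anti-IL34. The KO and Het animals overlapped, and the anti-IL34 animals lay well above their controls but in an upper and a lower pair. The antibody effect was 3.01 (SE 0.324), the deletion value 0.004, and the difference -3.003 (SE 0.512, edgeR adjusted p = 0.0889). This difference passed in 4 of 8 other settings, DESeq2 among them (adjusted p = 0.000769), and in 2 of 15 fits that left out 1 animal.

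Bst2, which encodes tetherin, a protein that holds budding virus at the cell surface, followed with a difference of -2.44 (SE 0.417, edgeR adjusted p = 0.0889), which passed in 3 of 8 other settings and in 2 of 15 fits without 1 animal. Its levels with anti-IL34 were 7.93, 4.06, 3.58 and 6.06 CPM, against 1.05 to 1.74 CPM with anti-gp120, 0.68 to 0.92 CPM in Het and 0.28 to 0.68 CPM in KO. Further members with a low p were C4b, Eif2ak2 and Ifi204, with edgeR adjusted p of the difference between 0.146 and 0.158.

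Of the classes, the 53 genes that rose with the antibody alone had the largest median difference, -1.59. Their median antibody effect was 1.59 and their median deletion value -0.08, with 20 of 53 above 0 in the deletion route. Of 2 members with an unadjusted deletion p under 0.05, Ifi204 and Ifi206, neither was higher in KO. The deletion values come from separate animals but from the same fit, and the class required that deletion did not pass. That requirement removed none of the 53 genes that rose with the antibody. The difference was below 0 with an unadjusted p under 0.05 for 50 of the 53 (2.02% of all genes), but those genes were chosen on the antibody effect that enters the difference, so this count is a description. Members of the 5 interferon lists made up 38 of the 53, against 104 of all 19724 genes tested. The lists were chosen with earlier results of these data known, so this overlap is a description. Others of the 53, such as Ifi207, Ifi203 and the class I genes, picked after the class was seen, are interferon-inducible too. An exception is Ccn2, a matricellular growth factor gene with an antibody effect of 0.53.

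Promoter sequence is shown for 6 of these genes to show the interferon response element, which many members of the class held. In the 250 bases upstream of RefSeq transcript starts (GRCm38.p6), 20 of the 37 members with an entry held the core of the interferon-stimulated response element, on either strand (54.1%). The letters searched were GAAA, any 2 bases, GAAA. The share with a match was 3.46% over the 27025 genes with an entry, 4.69% (3 of 64) for genes that fell with the antibody alone and 3.92% (2 of 51) for genes that fell in both routes. With the deletion alone it was 1 of 7. The longer form, with a C after the second GAAA, is a subset of the first and was found in 13 of the 37 (35.1%) and in 0.796% of all genes. A looser form, AANNGAAA, chosen after the promoters had been seen, contains every match of the first and was found in 26 of the 37 (70.3%) against 23.9% of all genes. Stretches are written 5′ to 3′ along the gene's strand with every match in capitals, and a match on the opposite strand appears as TTTC, any pair of bases, TTTC. Isg15 and the looser match in Lgals3bp were picked after values were seen.
Bst2, chr8:71537572-71537617, minus strand: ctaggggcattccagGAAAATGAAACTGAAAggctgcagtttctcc
Ifit1, chr19:34640770-34640828, plus strand: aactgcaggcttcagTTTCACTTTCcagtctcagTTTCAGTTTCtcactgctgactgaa
Ddx60, chr8:61928019-61928086, plus strand: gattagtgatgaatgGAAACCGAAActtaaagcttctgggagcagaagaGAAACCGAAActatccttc
Isg15, chr4:156200860-156200911, minus strand: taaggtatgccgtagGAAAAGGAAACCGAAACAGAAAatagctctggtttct
Cxcl10, chr5:92349078-92349117, minus strand: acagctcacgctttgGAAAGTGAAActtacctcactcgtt
Lgals3bp (looser form), chr11:118401960-118401988, minus strand: catgtgttttctgaaAATCGAAActaggt
Bst2, Ifit1 and Ddx60 each held 2 matches, Isg15 held 3 and Cxcl10 held 1. The Lgals3bp stretch lies before its RefSeq start but within the longer gene span of the annotation used for counting. A match describes these letters and was not tested as a binding site.

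Among nucleic acid sensors, which detect foreign RNA or DNA, 4 of 15 tested members rose with the antibody (0.269% of all genes). With the antibody 1 fell (0.766% of all genes), and 1 fell with deletion (0.441%). Ddx60, a helicase that assists RNA sensing, was 1.55 to 2.11 CPM in Het, 1.01, 1.81 and 1.80 CPM in KO, 1.32 to 3.54 CPM with anti-gp120 and 17.3, 6.46, 9.85 and 16.6 CPM with anti-IL34. Its difference was -2.42 (SE 0.489). Ifih1 and Rigi, the genes of the RNA sensors MDA5 and RIG-I, rose with the antibody by 1.12 and 1.13 and had differences of -1.28 (SE 0.275) and -1.37 (SE 0.320). Ifi204, a gene of the DNA-binding p200 family, had -2.87 (SE 0.550). It was 0.18 to 0.20 CPM in all 3 KO animals, 0.33 to 0.67 CPM in Het and 2.26 to 5.20 CPM with anti-IL34. Its deletion effect of -1.17 did not pass adjustment. Sting1, the adaptor for cytosolic DNA, went the other way: it fell with the antibody by 1.22, had a deletion value of -0.48, and a difference of 0.74 (SE 0.293).

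The signalling genes themselves were mostly flat. Of 19 tested ligand, receptor, JAK, STAT and IRF genes, 4 rose with the antibody (0.269% of all genes), among them Stat2, Irf7 and Irf9. Only Ifngr1 fell with the antibody (0.766% of all genes), and none passed for deletion. Stat2 passed for the antibody in 10 of 15 fits without 1 animal. Irf7, which amplifies interferon production, had a difference of -2.47 (SE 0.529) and Irf9, the DNA-binding partner of STAT proteins, -0.91 (SE 0.200). Irf7 and Irf9 overlap other annotated genes and may share reads with them. Ifnb1 was listed at 0 in all 15 libraries and Ifng had 1 count in all, so neither ligand gene entered the test. The receptor genes Ifnar1 and Ifnar2 had differences of 0.02 and -0.23.

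Antiviral effectors showed the pattern most widely. Of 38 tested, 21 rose with the antibody (0.269% of all genes) and none passed for deletion. All 38 antibody values were above 0, and all 38 differences were below 0. In the deletion route 11 of 38 values were above 0, with a median of -0.11. For 9 of the 38 the KO animals lay below all Het animals without overlap (5.24% of all genes), and for 0 above (3.83%). The median antibody effect was 1.24 and the median difference -1.46, against 0.01 and -0.01 over all genes tested. The difference had an unadjusted p under 0.05 for 31 of the 38 (2.02% of all genes). Ifit1, whose protein binds viral RNA, was 23.7, 7.41, 9.54 and 21.9 CPM with anti-IL34 against 1.78 to 4.17 CPM with anti-gp120, 1.23 to 1.53 CPM in Het and 0.64 to 1.13 CPM in KO. Its antibody effect was 2.42 (SE 0.337) and its difference -2.92 (SE 0.564). Eif2ak2, the gene of the RNA-activated kinase PKR, had a difference of -1.31 (SE 0.242) from 37.2, 20.0, 21.9 and 35.6 CPM with anti-IL34 and 12.7 to 15.3 CPM with anti-gp120. Adar, which edits double-stranded RNA, had the difference nearest to 0 but for Ifit1bl1, at -0.04 (SE 0.067).

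Of the 24 ubiquitin-like, ligase and PARP genes, 7 rose with the antibody (0.269% of all genes) and none passed for deletion. Medians were 0.69 for the antibody and -0.82 for the difference. The 1 called difference of this list is Lgals3bp, which is also on the galectin list and is neither a ubiquitin-like, a ligase nor a PARP gene. Rnf213, a large ubiquitin ligase, had a difference of -1.39 (SE 0.286), Phf11d -2.76 (SE 0.590) and Parp9 -1.04 (SE 0.238). Isg15, the ubiquitin-like modifier, was 6.82, 2.18, 3.06 and 3.95 CPM with anti-IL34 against 0.59 to 1.07 CPM with anti-gp120, and had a difference of -2.11 (SE 0.560). Of 8 tested interferon-gamma-inducible GTPases, Gbp3 and Irgm1 rose with the antibody (0.269% of all genes). Irgm1 passed for the antibody in 10 of 15 fits without 1 animal. For 3 of the 8 GTPases the difference was lower at an unadjusted p under 0.05 (2.02% of all genes). Their median deletion value was 0.36, and 7 of 8 were above 0 in KO, though none passed. Their sum was 22.4, 42.9 and 27.0 CPM in KO animals 3, 6 and 24 and 26.9 to 29.0 CPM in Het, so that 1 KO animal, 6, stood above Het. Gbp3 had -1.42 (SE 0.307) and Irgm2 -0.29 (SE 0.455).

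Class I antigen presentation genes had differences below 0 in 17 of 17 tested (10257 of 19724 over all genes), with a median of -0.87. Of these class I and peptide-loading genes, 4 rose with the antibody (0.269% of all genes), namely H2-Q7, H2-D1, H2-T22 and H2-T23, and none passed for deletion. An unadjusted difference p under 0.05 was found for 10, all lower (2.02% of all genes). H2-D1 was 24.6, 20.4, 19.5 and 25.6 CPM with anti-IL34, above the 11.97 to 17.8 CPM of anti-gp120, while KO (9.63 to 12.1 CPM) overlapped Het (11.3 to 12.4 CPM). Its difference was -0.66 (SE 0.171), and its antibody effect passed in 11 of 15 fits without 1 animal. H2-Q7, at 0.31 to 0.52 CPM with anti-IL34 and at most 0.08 CPM with anti-gp120, had -3.55 (SE 0.855). B2m, the invariant light chain, had -0.68 (SE 0.153) with an antibody value of 0.42 that missed adjustment. H2 genes are near-identical in stretches and reads may be split between them. No class II gene passed in either route (0 of 7), and their median difference was -0.42 with 4 of 7 below 0. The 1 member with an unadjusted difference p under 0.05, H2-Aa, lay above 0 at 1.42 (SE 0.533).

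C4b, the complement component C4 gene (chromosome 17, 34728380 to 34743882), had an unadjusted difference p next after Bst2. It was 11.3, 12.04, 12.1 and 10.9 CPM in Het and 11.0, 10.2 and 9.56 CPM in KO. It was 17.4, 16.4, 15.7 and 15.0 CPM with anti-gp120 and 29.2, 24.4, 21.7 and 36.6 CPM with anti-IL34. The antibody arms did not overlap and the genotype arms did. C4b rose with the antibody by 0.74 (SE 0.109) and had a difference of -0.90 (SE 0.163, edgeR adjusted p = 0.146). Of 15 tested complement genes 12 had a difference below 0 (10257 of 19724 over all genes). For 3 of these the unadjusted p was under 0.05 (2.02% of all genes). They were C4b, C3ar1 at -0.998 (SE 0.269) and C5ar1 at -1.66 (SE 0.732). C3ar1 and C5ar1 are the genes of the receptors for C3a and C5a. C3ar1 had an antibody value of 0.25 and a deletion value of -0.75, neither past adjustment. C1qa, C1qb and C1qc fell in both routes. The chemokine gene Cxcl10, an interferon target that attracts T cells, was 5.07, 1.47, 1.504 and 3.03 CPM with anti-IL34 and 0.06 to 0.69 CPM with anti-gp120. It was 0.05 to 0.34 CPM in the genotype libraries and had a difference of -2.03 (SE 0.773). It overlaps Art3 on the other strand. Of 13 tested chemokine and cytokine genes it was the 1 that rose with the antibody (0.269% of all genes). Of the others 2, Tgfb1 and Ccl9, fell (0.766% of all genes), by 0.65 and 1.27. The Tgfb1 fall passed in 7 of 15 fits without 1 animal.

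**Figure D2:**
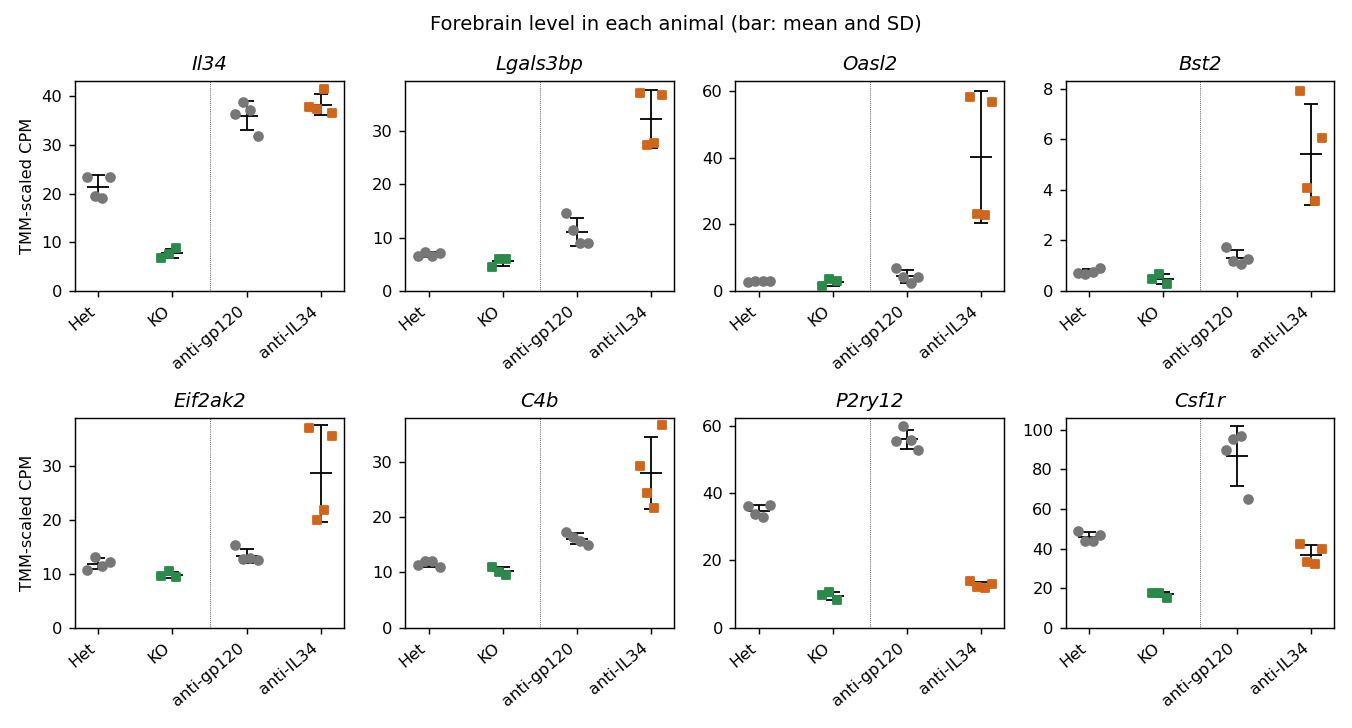
Level in TMM-scaled CPM (vertical, linear axis) of 8 genes in each of the 15 forebrain libraries by arm; points are animals, bars the mean and SD. Lgals3bp, Oasl2, Bst2, Eif2ak2 and C4b are highest in the anti-IL34 arm, at 22.8 to 58.1 CPM for Oasl2, whereas P2ry12 and Csf1r are lower in KO and in anti-IL34.

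The anti-IL34 animals were not alike in the level of the interferon genes. Animals 2 and 24 had 748 and 705 CPM summed over the antiviral effectors, and animals 10 and 11 had 493 and 534 CPM. The anti-gp120 libraries had 361 to 417 CPM, the Het libraries 350 to 364 CPM and the KO libraries 343 to 364 CPM, so even the lower pair stood above every other library. The higher pair were both male, as was animal 10, and animal 11 was the only female of the arm. The part of sex in this split was not tested. This spread within 1 arm enters the error of every difference above. Without animal 10, 33 differences passed (edgeR, adjusted p under 0.05), 29 of them in the interferon lists. Without animal 11 there were 5. Leaving out any other animal gave 2 or 3. Lgals3bp had less of this spread than Oasl2 or Ifit1.

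Markers of other cell types were read in the same libraries. Granulocyte and monocyte markers summed to 5.24 to 10.3 CPM with anti-IL34 and 3.55 to 8.15 CPM with anti-gp120, and none of 9 tested passed. Markers of T, NK and B cells summed to 7.67 to 14.8 CPM and 9.99 to 16.3 CPM, and none of 3 tested passed, with Cd3e at 19 and Cd3d at 10 counts over all 15 libraries. Oligodendrocyte lineage markers, 13 tested, had deletion values below 0 throughout, and in 8 the KO animals lay below all Het animals without overlap (5.24% of all genes). They summed to 4731 to 5092 CPM in KO, 5783 to 6887 CPM in Het, 4229 to 6454 CPM with anti-IL34 and 5542 to 5775 CPM with anti-gp120. The difference was below 0 for 11 of the 13 and had an unadjusted p under 0.05 for 5 (2.02% of all genes), while none passed adjustment; the part of these markers in the other results was not tested. Within the anti-IL34 arm, choroid plexus markers were highest in animal 24 (145 CPM) and lowest in animal 2 (10.5 CPM), both animals of the higher pair. Total counts of the pair were 15.1 and 21.7 M, against 43.1 and 19.6 M in animals 10 and 11. Mitochondrial reads were 5.68% and 5.57% in the pair and 4.76% and 4.67% in the others (5.33% to 6.03% with anti-gp120), and the part of RNA quality in the split was not tested. They were 4.7% to 4.91% in KO, below the 5.05% to 5.39% in Het, and the part of this in the deletion effects was not tested.

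The 79 genes that fell with the antibody alone mostly had deletion values of the same sign, unlike those that rose. Their number was 33 to 143 when 1 animal was left out, with 33 without anti-IL34 11, 45 without anti-IL34 10, 51 without anti-IL34 24, 48 without anti-gp120 8 and 143 without anti-gp120 15. In the deletion route 77 of 79 were below 0 as well, and 63 had an unadjusted p under 0.05 in that direction, against 3.05% of all genes. Their median was -0.85 with the antibody and -0.52 with deletion. A difference with an unadjusted p under 0.05 was found for 14 of the 79, all above 0 (1.04% of all genes), and none passed adjustment. The genes were chosen on the antibody effect that enters the difference, so this count too is a description. For this class, therefore, no difference of routes was shown past adjustment. Slc2a5, the microglial fructose transporter GLUT5, had the lowest p. It was 3.02, 3.31, 4.08 and 2.23 CPM with anti-gp120 and 1.04, 0.50, 0.67 and 0.55 CPM with anti-IL34. It was 1.91, 1.76, 1.58 and 1.69 CPM in Het and 0.74, 0.81 and 1.04 CPM in KO. The arms did not overlap in either route. Slc2a5 fell by 2.27 (SE 0.232) with the antibody, and its deletion value was -1.05 (SE 0.232, edgeR adjusted p = 0.0631). The difference was 1.22 (SE 0.339, edgeR adjusted p = 0.789).

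Bank1, a signalling adaptor listed among homeostatic microglial genes, had a difference of 0.82 (SE 0.273). Il4ra, the interleukin-4 receptor chain, was 3.77, 2.61, 3.06 and 3.40 CPM with anti-IL34 against 4.25 to 6.24 CPM with anti-gp120, and overlapped between KO and Het. Its difference was 0.68 (SE 0.209). Stab1 and Mrc1, scavenger receptor genes used as markers of border-associated macrophages, fell with the antibody, with differences of 0.44 for each (SE 0.185 and 0.231). The markers of those macrophages summed to 17.7 to 30.03 CPM with anti-IL34 and 36.7 to 46.1 CPM with anti-gp120, and to 23.5 to 29.9 CPM in KO and 31.8 to 40.1 CPM in Het. Only these 2 of 11 tested markers passed with the antibody (0.766% of all genes fell) and none with deletion.

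The 15 genes past the threshold for deletion alone all fell in KO. Their number was 3 to 32 when 1 animal was left out (3 without KO 6, 32 without anti-IL34 11), with 7 without Het 20, Het 23 or KO 3, 6 without KO 24 and 26 without anti-IL34 10. Of 15 such fits, Fcgr1 passed for deletion in 9 and Il10ra and Gm35154 in 10, while Il34 and Slc11a1 passed in all 15. With the antibody 14 of 15 were below 0 as well, and 12 had an unadjusted p under 0.05 in that direction, against 4.38% of all genes. The exception in sign was Il34. Medians were -1.23 with deletion and -0.62 with the antibody, and 6 had an unadjusted difference p under 0.05, of which Il34 passed adjustment. Slc11a1, the metal transporter of phagosomes, was 1.00 to 1.64 CPM in Het and 0.37, 0.52 and 0.28 CPM in KO, and 1.503 to 2.64 CPM with anti-gp120 and 1.12 to 1.42 CPM with anti-IL34. Neither pair of arms overlapped. Its effects were -1.74 and -0.73 and its difference -1.01 (SE 0.356).

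Fcgr1, the high-affinity IgG receptor gene, which interferon also induces, fell with deletion by 1.35 and had an antibody value of -0.59. It was 2.50, 2.20, 1.65 and 2.09 CPM in Het and 0.92, 0.66 and 0.95 CPM in KO. It was 5.56, 5.22, 4.86 and 4.39 CPM with anti-gp120 and 5.72, 2.52, 2.75 and 3.26 CPM with anti-IL34. Anti-IL34 animal 2 stood above all its controls while the other 3 stood below them. The difference was -0.76 (SE 0.338). Itgb2, the beta-2 integrin chain, had -0.65 (SE 0.319) and Il10ra, the interleukin-10 receptor chain, -0.63 (SE 0.307). Gm35154, a long non-coding gene, was 0.11 to 0.25 CPM in Het and 0, 0.02 and 0 CPM in KO, which is too few counts for a fold, and overlaps other annotated genes.

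**Figure D3:**
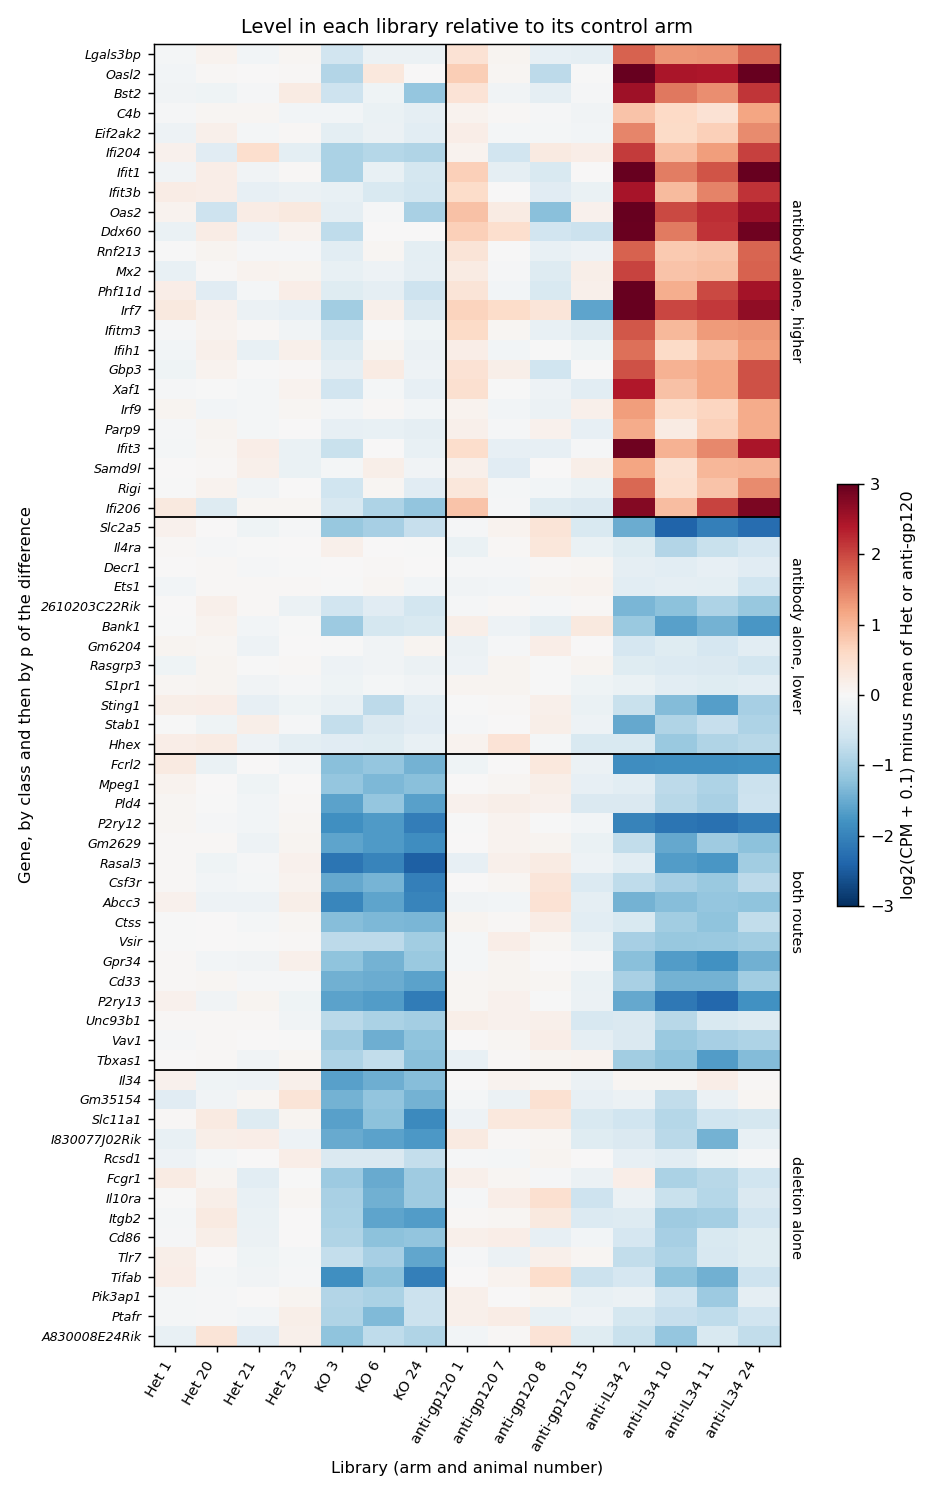
Level of each gene in each library as log2(CPM + 0.1) minus the mean of Het (left block) or anti-gp120 (right block), for 24 and 12 genes with a low difference p among those that rose or fell with the antibody alone, 16 of both routes and 14 of the 15 of deletion alone. The upper block is red in the 4 anti-IL34 libraries, deepest in animals 2 and 24, and mostly near white to light blue in the 3 KO libraries. The third block is blue in both KO and anti-IL34.

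The 72 genes of both routes had a median deletion effect of -1.22, a median antibody effect of -1.12 and a median difference of -0.03. Fewer genes passed in both routes without KO animal 3 and more with DESeq2, as given in the last section. An unadjusted difference p under 0.05 was found for 10 of them (7 lower, 3 higher), and none passed adjustment. Of the homeostatic microglial genes, 21 of 30 tested fell with deletion (0.441% of all genes) and 26 with the antibody (0.766%). Their medians were -1.23 and -1.20, with a median difference of 0.02. An unadjusted difference p under 0.05 was found for 6 of the 30, 5 higher (1.04% of all genes) and 1 lower (2.02%). P2ry12, the purinergic receptor that marks resting microglia, was 36.1, 33.8, 32.9 and 36.4 CPM in Het and 9.72, 10.6 and 8.14 CPM in KO. It was 55.6, 59.9, 55.9 and 53.0 CPM with anti-gp120 and 13.8, 12.2, 11.8 and 12.95 CPM with anti-IL34. It fell by 1.85 with deletion and by 2.16 with the antibody, and the difference was 0.32 (95% interval 0.08 to 0.55). P2ry12 lies within Med12l on the other strand and may share its reads.

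Csf1r, the receptor of IL-34, fell by 1.41 and 1.28, and its difference was -0.14 (95% interval -0.46 to 0.19). Cx3cr1, the fractalkine receptor gene, and Siglech, a sialic acid-binding lectin gene, both had a difference of 0.02 with SE 0.148 and 0.196. Such intervals do not show equal effects. Cx3cr1 overlaps 9 annotated genes (3 on the same strand) and Csf1r overlaps 2 (1 on the same strand), and both may share reads. Fcrl2, the gene also known as Fcrls, had a larger fall with the antibody before adjustment. It was 8.45, 8.45, 8.45 and 8.63 CPM with anti-IL34 against 27.2 to 38.1 CPM with anti-gp120, and 6.75, 7.27 and 6.01 CPM in KO against 14.1 to 19.7 CPM in Het. The difference was 0.60 (SE 0.174).

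Of the 72, 7 genes had a difference below 0 at an unadjusted p under 0.05, and 4 of them are given here. Mpeg1, the gene of the pore-forming protein perforin-2, was 7.54, 6.61 and 7.05 CPM in KO against 15.6 to 18.2 CPM in Het, and 26.7, 19.4, 17.4 and 21.3 CPM with anti-IL34 against 27.8 to 37.9 CPM with anti-gp120. Its difference was -0.57 (SE 0.164). Ctss, the lysosomal protease cathepsin S, had -0.44 (SE 0.190), Pld4, an endolysosomal exonuclease, -0.66 (SE 0.232) and Csf3r, the G-CSF receptor, -0.67 (SE 0.240). Mpeg1, like Fcgr1, was highest of the anti-IL34 arm in animal 2, 1 of the pair with the higher interferon genes; the part of that pair in these differences was not tested. No disease-associated microglial gene passed in either route (0 of 19), and their median difference was 0.01.

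Csf1, the other ligand of the receptor, did not pass in either route. Its levels were 13.1 to 15.0 CPM in Het, up to 16.6 CPM in KO, 11.1 to 14.9 CPM with anti-gp120 and 12.6 to 22.5 CPM with anti-IL34, and its difference was -0.26 (95% interval -0.66 to 0.13). Ptprz1, a neural receptor to which IL-34 also binds, had 0.20 (SE 0.115).

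No difference above 0 passed adjustment. The smallest p belonged to Yae1d1, a gene for assembly of an iron-sulphur protein, which was 1.10, 0.98 and 1.09 CPM in KO above 0.66 to 0.91 CPM in Het, and 0.55 to 0.73 CPM with anti-IL34 below 0.79 to 1.503 CPM with anti-gp120. Neither pair of arms overlapped, in opposite directions. The difference was 1.43 (SE 0.327, edgeR adjusted p = 0.304). The next were Gm12057, Slc2a5, Xndc1 and Gm38403, of which all but Slc2a5 were near or below 1 CPM. Yae1d1, Gm12057 and Xndc1 each overlap at least 1 other annotated gene on the same strand and may share reads.

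**Figure D4:**
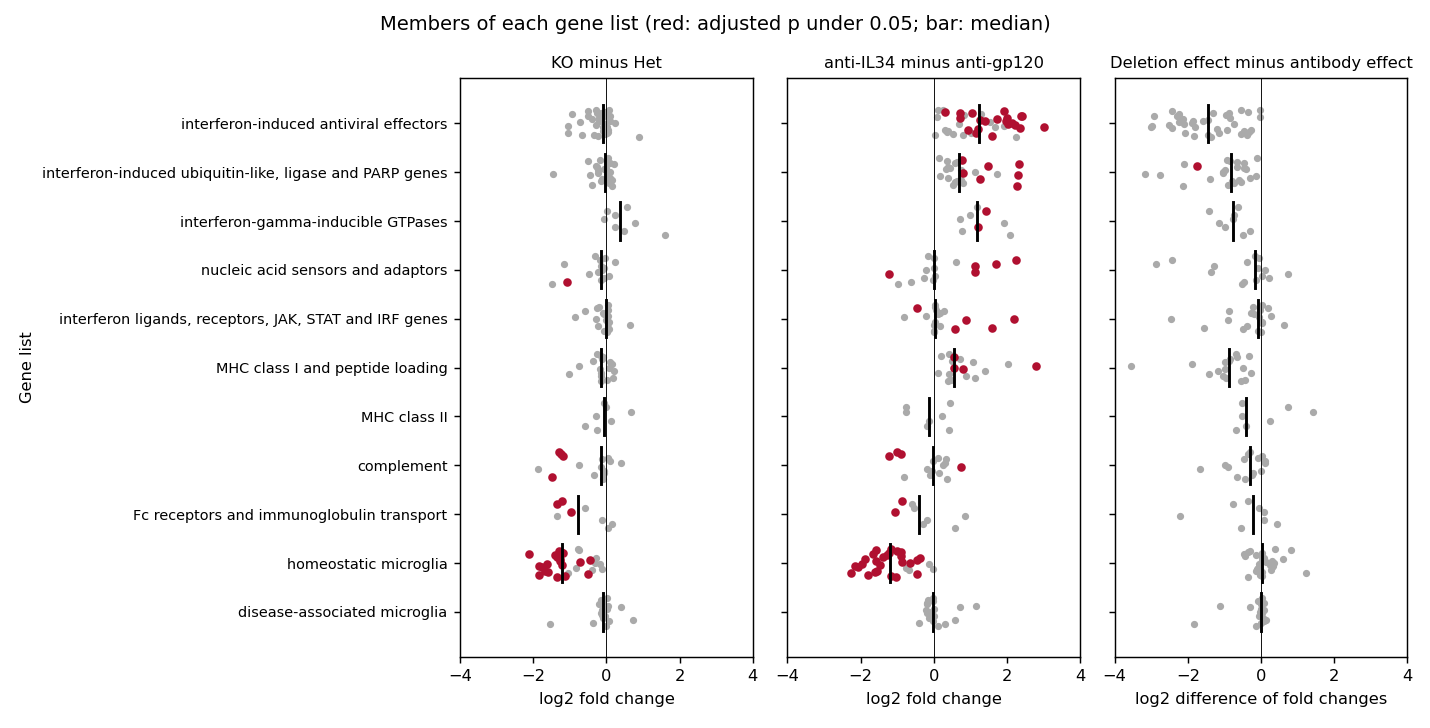
Log2 values of the tested members of 11 gene lists (rows) for deletion, antibody and the difference (3 panels); red points passed the adjusted threshold and bars mark list medians. In the antiviral row the antibody median is 1.24 and the difference median -1.46, while the homeostatic microglia row lies at -1.23, -1.20 and 0.02.

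In the microglia isolated from the other hemisphere of the same animals, no difference passed adjustment among 18732 genes, with 740 (3.95%) at an unadjusted p under 0.05 (edgeR). In that fit the difference was -2.70 for Lgals3bp, -2.75 for Oasl2, -2.09 for Bst2, -0.90 for C4b and 0.003 for P2ry12, the first 4 of them at an unadjusted p under 0.05.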

How the data were processed

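Whole-forebrain RNA was made into SMART-Seq v4 libraries, per the labels' protocols. The authors deposited whole-number read counts per gene and a Length per gene in bases (another unit), which equalled the GENCODE M21 gene span for 51183 of 51498 matched genes, so counts may include intronic reads and reads of overlapping genes. Irf8, Itgam, Myd88, Adora3, Cfb, Gbp4, Gbp9, Ifi47 and Tgtp1 were listed at 0 in all 15 libraries, each overlaps a same-strand gene span, and none entered the lists' tests. STAR 2.7.5c, featureCounts 1.6.3, R 4.4.0 and GRCm38 are named in the submitters' processing notes without their order. Strand use is not given in the sources used here. Arms came from the labels, and 6 count columns matching no labelled sample were not used. The deposited TPM table was not used here.

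Under R 4.3.3, edgeR 4.0.16 was run on these counts with TMM scaling, filterByExpr on arm (19724 of 51752 genes), arm and sex in 1 quasi-likelihood fit over 15 libraries, Benjamini-Hochberg adjustment at 0.05. Standard errors are the log2 value divided by the square root of F, and intervals cover 95%. The fit was also run on simulated counts with known changes in KO, and the outcome is not given here. With 3 or 4 animals an arm, p-values compare each effect with the spread between animals, pooled over the arms and moderated across genes. Chi-square per degree of freedom was at least 5.61 over 21 replicate pairs, so no library looked deposited more than once within its arm. Libraries of different arms were not compared in this way. Alternatives used RLE scaling, other filters, DESeq2 1.42.0, limma-voom (limma 3.58.1), other sex terms, a robust fit, each experiment alone and each animal left out. Gene lists are described by counts and medians without a set test.

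Named genes were Il34, Csf1, Csf1r, those with a called difference, the 8 lowest difference p each way and of each route alone, 6 of both routes and up to 4 per list. Members and lists were chosen with earlier results of these data known. Sting1, Il4ra, Mpeg1, Pld4, Ctss, Stab1, Mrc1, Adar, Isg15 and a few other genes outside that rule were named after their values were seen. Promoters are from RefSeq. Some named-gene results are not reported here.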

Additional observations from a re-analysis of the deposited data

Results flagged for a closer look

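The difference between the routes passed its own test for Il34 (-1.58) and Lgals3bp (-1.76), as the report describes.

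Over 31 genes, 93 sets of 4 animals were checked for a lone animal far from the other 3, and 8 were found; chance gives about 1 in 20. In 4 of the 8 it was anti-gp120 animal 15 at the low end: Csf1 at 11.1 CPM (others 14.3 to 14.9), Cd33 at 14.4 CPM (others 17.0 to 17.4), Cx3cr1 at 46.1 CPM (others 57.3 to 59.5) and Siglech at 21.8 CPM (others 28.7 to 29.8). Cd33, Cx3cr1 and Siglech are microglial genes, and this animal also had the highest choroid plexus sum of its arm, 70.7 CPM; its part in the antibody effect is given as fits without it. Siglech in anti-IL34 animal 2 was high at 12.5 CPM (others 7.84 to 8.59). Eif2ak2 in anti-gp120 animal 1 was high at 15.3 CPM (others 12.7 to 12.9). Oasl2 in Het animal 1 was low at 2.74 CPM (others 2.95 to 2.97) and Fcrl2 in anti-IL34 animal 24 was high at 8.63 CPM (others 8.45), both by small amounts among closely agreeing animals.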

How the results depend on the processing

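Il34 and Lgals3bp had a called, negative difference under every setting run, with Il34 from -1.63 to -1.47 and Lgals3bp from -1.95 to -1.53 when 1 animal was left out. Without a filter on low counts the numbers were 114 for the difference of routes, forebrain, 217 for the deletion effect, forebrain, 466 for the antibody effect, forebrain, 83 for deletion alone, 140 higher and 192 lower for the antibody alone and 124 for both routes lower; that fit also had 10 genes higher with deletion, 5 genes higher in both routes and 5 genes past the threshold in opposite directions. DESeq2 called 27 differences (25 in the interferon or class I lists) and 109 genes in both routes. Without the sex term 4 differences passed. With limma-voom 29 genes rose with the antibody alone. No gene rose with deletion in DESeq2 or limma-voom. The antibody experiment fitted alone gave 123 genes. Leaving out 1 animal gave 2 to 33 differences (33 without anti-IL34 animal 10, 5 without 11), 53 to 97 genes for deletion (53 without KO animal 3, 55 without 6), 134 to 284 for the antibody (134 without anti-IL34 animal 11), 3 to 32 for deletion alone (7, 7, 7, 3, 6, 26 and 32 without Het 20, Het 23, KO 3, KO 6, KO 24, anti-IL34 10 and anti-IL34 11), 37 to 74 for antibody alone higher, 33 to 143 for antibody alone lower (48, 143, 45, 33 and 51 without anti-gp120 8, anti-gp120 15, anti-IL34 10, anti-IL34 11 and anti-IL34 24) and 46 to 86 for both routes lower (46 without KO animal 3). KO 3 and anti-IL34 11 were each the only animal of their sex in the arm. Single-gene differences near 0 changed sign: Cx3cr1 was -0.0133 and Siglech -0.00766 without the sex term, and without 1 animal Cx3cr1 ranged from -0.0486 to 0.127, Siglech from -0.0490 to 0.178 and Lgals8 from -0.244 to 0.0095. The cause of these changes was not tested. No paired analysis was possible because the arms compared within a route share no animal numbers, and the numbers 1 and 24, which occur in both experiments, belong to different animals. Genes under about 1 CPM rest on few counts in the shallowest libraries.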
